A study of Mus musculus with 23 samples.

Results

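Moderate-intensity continuous training (MICT) was set against a sedentary life in the calf muscle of adult mice, using 7 of the 23 arrays of the series. The members were the 3 arrays of adult MICT mice (replicates 1, 3 and 4; replicate 2 is not analysed here) and the 4 arrays of adult sedentary mice (replicates 1 to 4), taken by their labels and not by any measured value. All mice were single-housed C57BL/6J males of an inbred wild-type laboratory strain. The adult mice began at 5 months and were 6 months old by their label. Adult MICT mice ran on a treadmill every day for 4 weeks, in 1 bout of 45 min at 13 m/min. Adult sedentary mice were put on a treadmill that did not move. Gastrocnemius, the large and mostly fast-twitch calf muscle, was taken 12 h after the last session, and each array received 200 ng of total RNA in 1 colour. Other arrays are used where they bear on this comparison: 4 of adult mice given high-intensity intermittent training (HIIT, 3 runs of 2 min at 27 m/min), 4 of old MICT, 4 of old HIIT and 4 of old sedentary mice, which began at 24 months. Old HIIT arrays enter only the shared fit, the order of group means by slide and an additive slide model.

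Steady running at moderate speed draws on oxidative metabolism. In muscle, repeated bouts are known to raise the capacity of mitochondria to burn fatty acids and pyruvate, with the coactivator PGC-1alpha (gene Ppargc1a) as a central regulator, and they can promote capillary growth and a slower, more oxidative fibre profile. Many transcripts that respond to one bout, such as Fos, Egr1 and Pdk4, return toward their resting level within hours, so tissue taken after an overnight rest mainly shows levels that persist.

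A level is given here as the scaled log2 signal, the log2 intensity of a probe minus the 75th percentile of its array, so that 0 stands for a fairly bright probe and a step of 1 for a doubling. A difference is adult MICT minus adult sedentary on this log2 scale, and ± gives its standard error (SE) from limma. Between 50.1% and 53.6% of gene spots were well above background on the 3 adult MICT arrays, against 50.3% to 55.3% on the 4 adult sedentary arrays. The 10 muscle fibre markers, among them actin, creatine kinase and titin, were well above background on all 7 arrays, with a median difference of 0.03. The median spread of replicate spots on 1 array was 8.06% for adult sedentary 3 and lay between 3.76% and 4.91% on the other 22 arrays. The adult MICT arrays lay on slide 2 and the adult sedentary arrays on slide 1, so slide and training cannot be told apart in any value below. Whether arrays of a group come from separate litters or training batches is not given in the labels, and their number limits the precision.

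No transcript passed the test. Of 27244 features tested with limma, 0 were called at an adjusted p under 0.05 (0%), and every adjusted p was at least 0.999986. At an unadjusted p under 0.05 there were 635 features, 2.33% of those tested, of which 207 (0.76%) stood higher in adult MICT and 428 (1.57%) lower. In 1148 features (4.21%) the values of the 3 adult MICT arrays did not overlap those of the 4 adult sedentary arrays, 489 (1.79%) higher and 659 (2.42%) lower. The median difference over all features was -0.02, the 5th and 95th percentiles were -0.53 and 0.46, and the median SE was 0.25. Dim probes gave the larger share: of the 21172 features well above background on all 7 arrays 1.71% had an unadjusted p under 0.05, while of the other 6072 it was 4.48%. None of the differences described below is therefore a call, and each is given as a value with its error.

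Genes of oxidative metabolism sat close together in the groups. Of 36 measured subunits of respiratory complex I, 19 lay above and 17 below 0, with a median difference of 0.01. The 42 measured subunits of complexes II to V also had a median of 0.01, the 22 genes of pyruvate dehydrogenase and the citrate cycle 0.02, the 40 genes of fatty acid uptake and oxidation 0.02 and the 34 genes of glycolysis and glycogen 0.03. In these 5 lists 0 members had an unadjusted p under 0.05 in either direction, against 2.33% of all features. Cs, citrate synthase and a common measure of mitochondrial content, had levels of 8.62, 8.41 and 8.54 in adult MICT, against 8.60, 8.24, 8.37 and 8.29 in adult sedentary muscle. The values interleave, and the difference was 0.15 ± 0.14 with a 95% interval of -0.15 to 0.45. Ppargc1a stood at 3.30, 3.23 and 3.14 in adult MICT and at 3.1, 2.85, 3.54 and 2.91 in adult sedentary muscle. Its difference of 0.12 ± 0.21 had an interval of -0.33 to 0.57. For both genes the upper bound lies below a doubling.

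Among the fuel-handling genes, Pdk4 had the widest interval of those given here. Pdk4, the kinase that shuts off pyruvate dehydrogenase, had 6.81, 7.19 and 5.74 in adult MICT, against 6.54, 6.01, 5.11 and 5.39 in adult sedentary muscle. One MICT array lies inside the sedentary range and 2 above it, and the difference was 0.82 ± 0.82 (95% interval -0.88 to 2.52). Cpt1b, which carries fatty acids into mitochondria, differed by 0.13 (-0.26 to 0.52) and Cd36, a fatty acid transporter, by 0.13 (-0.43 to 0.69). Hk2, which traps glucose in the cell, differed by -0.19 (-0.72 to 0.34), and Slc2a4, the insulin-responsive glucose transporter, by -0.00 (-0.30 to 0.29). Slc16a1, a lactate and pyruvate carrier, differed by -0.49 ± 0.26, with 3 MICT values of -3.58, -3.94 and -3.72 beside sedentary values of -3.09, -3.67, -2.86 and -3.41.

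Of the 40 genes of fatty acid uptake and oxidation, 1 did not overlap above and 1 below. In the other fuel lists 0 did, and over all features the share was 4.21%. Plin5, a coat protein of lipid droplets that sits near mitochondria, had 4.93, 3.92 and 3.74 in adult MICT and 3.68, 3.70, 2.86 and 3.62 in adult sedentary muscle, for a difference of 0.73 ± 0.61. Eci1, an isomerase of fatty acid oxidation, stood at 6.01, 5.92 and 6.05 in adult MICT and at 6.20, 6.10, 6.08 and 6.43 in adult sedentary muscle, a difference of -0.20 ± 0.20. Both genes were singled out after their values were seen. Sdhd, an anchor subunit of complex II, had the largest difference of the respiratory lists at 0.59 ± 0.34. Its levels were 7.10, 6.82 and 6.97 in adult MICT and 7.12, 6.82, 4.75 and 6.81 in adult sedentary muscle, and without adult sedentary 3, the array with the wide spot spread, the difference was 0.04. The plot of intervals shows how far each of these differences is determined.

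**Figure D1:**
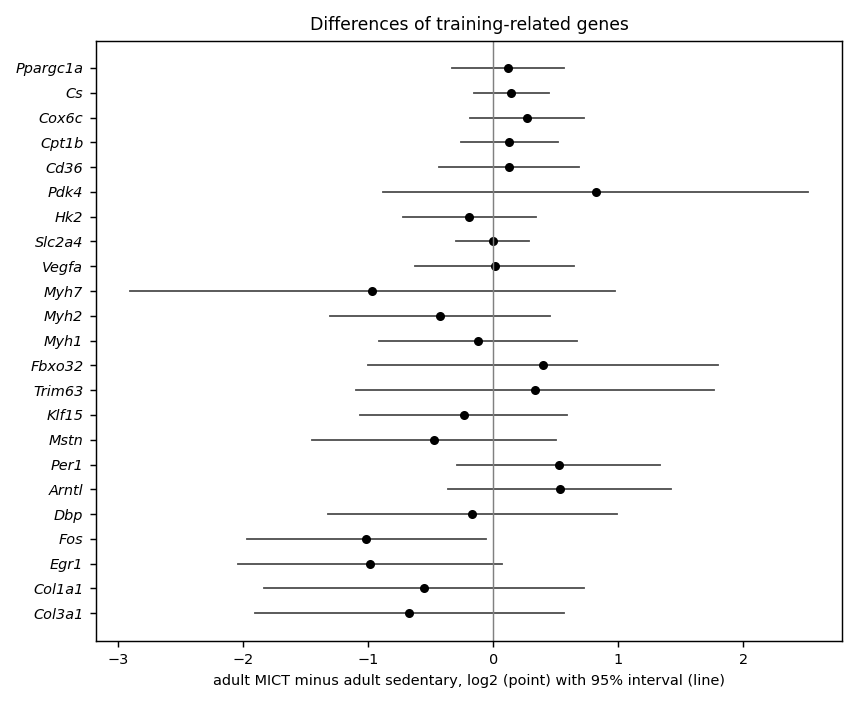
Difference between adult MICT and adult sedentary muscle for 23 training-related genes, on a log2 axis; points are limma estimates from 3 and 4 arrays and lines their 95% intervals. Cs and Slc2a4 are held within narrow limits, while the interval of Pdk4 runs from -0.88 to 2.52, and only that of Fos, from -1.97 to -0.06, leaves out 0.

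Lists of mitochondrial regulators and vessel genes also had medians near 0, though single members differed by more. The 30 measured biogenesis and fuel-sensing regulators had a median of -0.02, with 14 above 0 and 0 at an unadjusted p under 0.05. Nrf1, a transcription factor for respiratory genes, differed by 0.26 ± 0.17, with 0.83, 0.67 and 0.84 in adult MICT against 0.61, 0.82, -0.01 and 0.64 in adult sedentary muscle. Rxrg, a retinoid X receptor, differed by 0.50 ± 0.33. For each of them adult sedentary 3 is the lowest array. Among 32 genes of blood vessel growth the median was 0.04 and 0 had an unadjusted p under 0.05. Vegfa, the main capillary growth factor of muscle, stood at 4.38, 4.40 and 4.56 in adult MICT and at 4.39, 4.26, 4.49 and 4.61 in adult sedentary muscle, with a difference of 0.01 ± 0.31. Hif3a, a hypoxia-inducible factor subunit, differed by 0.82 ± 0.47, and Apln, the vascular peptide apelin, by -0.81 ± 0.51. Adult sedentary 2 is high for Apln at 0.42, while the other sedentary arrays lie between -2.28 and -2.06 and the MICT arrays at -1.44, -2.68 and -2.80. Endothelial markers had a median of 0.06 over 10 genes.

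Slow-fibre genes varied widely within each group. Type I fibres carry their own myosin heavy chain (Myh7), light chain (Myl2) and troponins (Tnni1, Tnnt1). Myh7 had 8.49, 5.14 and 5.69 in adult MICT and 6.20, 8.79, 7.22 and 7.44 in adult sedentary muscle. Adult MICT 1 stands high beside adult sedentary 2 and far above the other MICT arrays, and the difference was -0.97 ± 0.93. Tnni1 repeated the order with 5.37, 1.75 and 2.06 in adult MICT against 2.44, 5.86, 3.22 and 4.24 in adult sedentary muscle, a difference of -0.88 ± 0.95. Tnnt1 differed by -0.99 ± 0.76 and Myl2 by -0.88 ± 0.66. Of 20 measured slow-twitch genes 3 lay above 0, the median was -0.55, and 0 had an unadjusted p under 0.05. The list score of an array, the median over members of its deviation from the adult sedentary mean, was 1.03, -1.30 and -1.15 in adult MICT and -0.56, 1.40, -0.53 and -0.07 in adult sedentary muscle. The list median was -0.18 without adult sedentary 2, -1.24 without adult MICT 1, -0.18 without adult MICT 3, -0.26 without adult MICT 4 and -0.78 with adult MICT 1 and adult sedentary 2 both left out. How much of the slow red part of the muscle entered each sample is not recorded, and in whole tissue more cells of a type and more RNA per cell cannot be told apart.

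Fast-fibre genes varied less from array to array. The 21 measured members of the fast-twitch list had a median of 0.01, with 12 above 0. Myh2, the myosin of the oxidative type IIa fibre, had 9.52, 7.85 and 8.26 in adult MICT and 9.10, 9.01, 8.96 and 8.80 in adult sedentary muscle, a difference of -0.42 ± 0.42. Adult MICT 1 is the highest and the other MICT arrays the lowest of the 7. Myh1, the type IIx myosin, differed by -0.12 ± 0.38. Calcium-handling genes had a median of 0.01 over 28 members. Kcna7, a voltage-gated potassium channel of muscle, stood lowest there at -0.50 ± 0.26, while a second probe for it gave -0.10 ± 0.22.

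Promoter windows of the genes that separate these arrays are shown for reference, because the slow-fibre genes and the fat-cell genes described next are the lists with the largest medians below and above 0. The windows come from RefSeq on GRCm38.p6, run 5′ to 3′ on the gene's own strand, and hold 250 bases before and 50 after the first listed start of each gene. Capitals mark the E-box CAGCTG and the TATA box TATAAA, searched on both strands, which do not overlap each other here. Tnni1 lies at chr1:135799171-135799470 (+), Tnnt1 at chr7:4515926-4516225 (-), Adipoq at chr16:23146286-23146585 (+), Plin1 at chr7:79732727-79733026 (-) and Lep at chr6:29059971-29060270 (+).
Tnni1: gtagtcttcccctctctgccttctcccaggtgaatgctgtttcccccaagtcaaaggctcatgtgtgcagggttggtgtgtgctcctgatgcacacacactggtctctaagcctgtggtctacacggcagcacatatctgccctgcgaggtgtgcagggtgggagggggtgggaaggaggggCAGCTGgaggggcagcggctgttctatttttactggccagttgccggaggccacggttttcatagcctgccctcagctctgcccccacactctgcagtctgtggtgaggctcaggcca
Tnnt1: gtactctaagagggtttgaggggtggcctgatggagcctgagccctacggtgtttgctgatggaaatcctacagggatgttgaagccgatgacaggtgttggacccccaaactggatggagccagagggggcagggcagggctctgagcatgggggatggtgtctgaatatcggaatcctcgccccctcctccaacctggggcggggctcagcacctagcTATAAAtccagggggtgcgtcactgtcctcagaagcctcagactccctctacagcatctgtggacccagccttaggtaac
Adipoq: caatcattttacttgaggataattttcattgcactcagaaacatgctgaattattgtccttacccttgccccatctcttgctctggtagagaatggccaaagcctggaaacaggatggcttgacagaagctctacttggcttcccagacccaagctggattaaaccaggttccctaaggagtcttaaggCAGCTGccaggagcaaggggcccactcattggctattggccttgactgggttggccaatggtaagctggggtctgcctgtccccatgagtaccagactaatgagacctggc
Plin1: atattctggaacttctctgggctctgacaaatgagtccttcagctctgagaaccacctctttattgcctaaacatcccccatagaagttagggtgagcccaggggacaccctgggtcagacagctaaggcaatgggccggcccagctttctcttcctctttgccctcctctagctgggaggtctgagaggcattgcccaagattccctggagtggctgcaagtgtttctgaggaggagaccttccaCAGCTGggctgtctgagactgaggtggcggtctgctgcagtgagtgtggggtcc
Lep: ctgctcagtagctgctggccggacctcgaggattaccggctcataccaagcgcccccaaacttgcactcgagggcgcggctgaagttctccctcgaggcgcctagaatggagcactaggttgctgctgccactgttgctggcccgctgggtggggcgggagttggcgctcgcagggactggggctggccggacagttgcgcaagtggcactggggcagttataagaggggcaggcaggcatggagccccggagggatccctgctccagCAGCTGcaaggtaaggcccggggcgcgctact
Tnnt1 holds the TATA box and the other 4 windows hold 1 E-box each. Of the windows of 27025 genes, 16.1% hold CAGCTG and 14.2% TATAAA. Windows were found for 17 of the 20 slow-twitch genes, of which 5 hold CAGCTG and 4 TATAAA, and for 8 of the 13 adipocyte genes, of which 4 hold CAGCTG and 0 TATAAA. The letters describe the windows and do not show that a factor binds there.

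Fat-cell transcripts were the list with the largest median. All 13 adipocyte markers lay above 0 in adult MICT, with a median difference of 1.14 beside -0.02 for all features and a range of 0.02 to 2.76. Lep, the fat hormone leptin, had -1.41, -1.20 and -4.27 in adult MICT and -5.27, -5.33, -5.87 and -3.76 in adult sedentary muscle, where it was well above background on 1 of 4 arrays. Its difference was 2.76 ± 1.10, the only one of the list with an unadjusted p under 0.05. Plin1, which coats the fat droplet, stood at 1.95, 1.34 and -0.52 in adult MICT and at -0.43, -1.19, -1.12 and -0.68 in adult sedentary muscle, a difference of 1.78 ± 0.88. Adipoq, the fat hormone adiponectin, had 4.10, 3.93 and 1.70 in adult MICT against 1.88, 0.97, 1.95 and 1.84 in adult sedentary muscle, a difference of 1.58 ± 0.81. Cidec, a fat droplet fusion protein picked after its values were seen, had 3.61, 3.59 and 1.07 in adult MICT against 1.40, 0.49, 1.79 and 1.45 in adult sedentary muscle. In each of these genes adult MICT 1 and 3 are high while adult MICT 4 lies among the sedentary arrays, so the groups overlap.

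**Figure D2:**
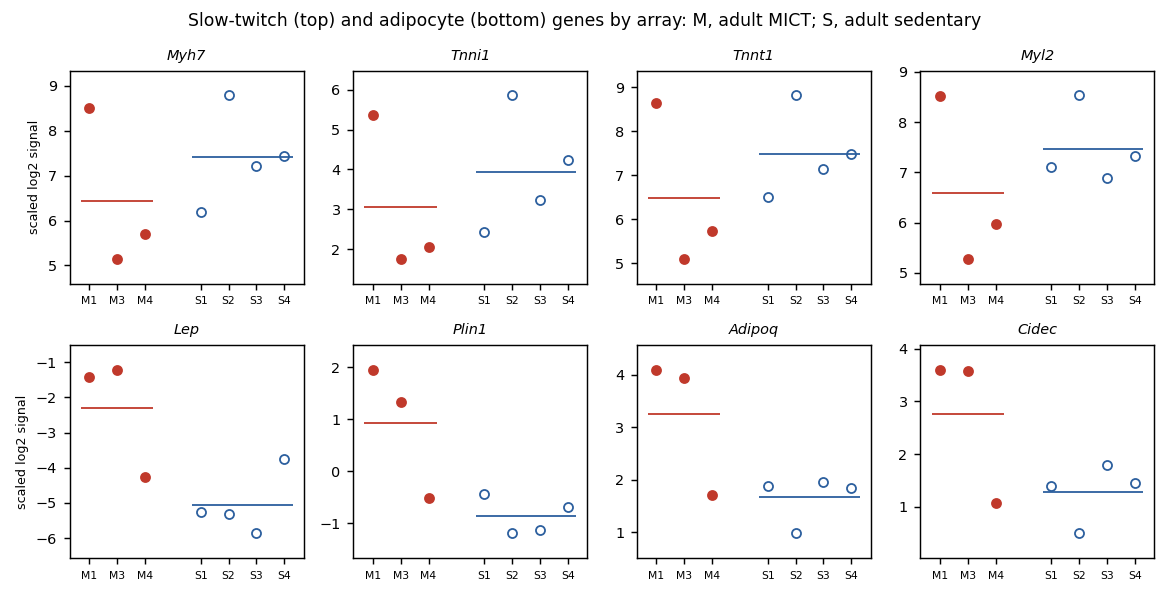
Scaled log2 signal of 4 slow-twitch genes (top) and 4 adipocyte genes (bottom) on each adult MICT (M) and adult sedentary (S) array; lines are group means. In the top row M1 and S2 stand high (Myh7 at 8.49 and 8.79), and in the bottom row M1 and M3 stand high while M4 lies with the sedentary arrays (Adipoq at 4.10, 3.93 and 1.70).

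The adipocyte score was 2.01, 1.44 and -0.14 in adult MICT and 0.15, -0.34, 0.08 and 0.04 in adult sedentary muscle. Scd1, a desaturase abundant in fat, followed it with 4.14, 3.69 and 2.33 in adult MICT against 3.29, 2.04, 1.18 and 2.22 in adult sedentary muscle (difference 1.20 ± 0.79), although its list, lipid synthesis, had a median of -0.04 over 28 genes. Cidea, a droplet protein best known from brown fat, was also high on adult MICT 1 and 3, at 3.08 and 2.80, beside 0.16 on adult MICT 4 and 0.03 to 1.43 on the sedentary arrays. The 5 measured brown adipocyte markers as a list had a median of -0.33. Smooth muscle and pericyte markers had all 8 members above 0 with a median of 0.24. Of these, Cnn1, the contractile protein calponin, differed by 1.03 ± 0.58 and Acta2, smooth muscle actin, by 0.43 ± 0.26. The part of fat or vessel tissue taken with the muscle in these values was not tested.

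Genes of dividing cells had lower values in adult MICT, and 1 sedentary array stood high. Of 32 measured cell division genes 1 lay above 0, and the median was -0.50, but 0 had an unadjusted p under 0.05. The score was -0.29, -0.67 and -0.57 in adult MICT and -0.63, 1.44, -0.07 and -0.56 in adult sedentary muscle, and without adult sedentary 2 the median was -0.13. Cdk1, the mitotic kinase, was not well above background on any MICT array and was so on 1 sedentary array; its highest level was -2.65, on adult sedentary 2. Foxm1, which drives mitotic genes, had -5.13, -4.78 and -4.34 in adult MICT and -4.71, -2.42, -4.19 and -4.04 in adult sedentary muscle. Adult sedentary 2 also had the highest macrophage score, 0.64, beside -0.43 to -0.09 on the other sedentary arrays and -0.50 to -0.12 in adult MICT.

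Matrix and connective tissue genes showed the same array. The 45 measured collagen and matrix genes had a median of -0.08. Col1a1, the chain of type I collagen, had 4.68, 3.72 and 3.30 in adult MICT and 3.59, 5.62, 4.69 and 3.92 in adult sedentary muscle, a difference of -0.56 ± 0.62. Col3a1 had 4.75, 4.21 and 3.79 in adult MICT against 4.15, 6.34, 4.86 and 4.35 in adult sedentary muscle, a difference of -0.67 ± 0.59. In both genes adult sedentary 2 is the highest array. Serpinh1, the collagen chaperone, differed by -0.64 ± 0.39. Tendon markers had 11 of 12 members above 0 and a median of 0.24, and their score was 1.62, -0.42 and -0.12 in adult MICT against -0.43, 0.34, -0.08 and 0.25 in adult sedentary muscle. Mkx, a tendon transcription factor, had its highest level on adult MICT 1 at -1.11, against -3.05 and -2.31 on the other MICT arrays and -3.21 to -2.28 in adult sedentary muscle. Without adult MICT 1 the tendon median was -0.31.

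**Figure D3:**
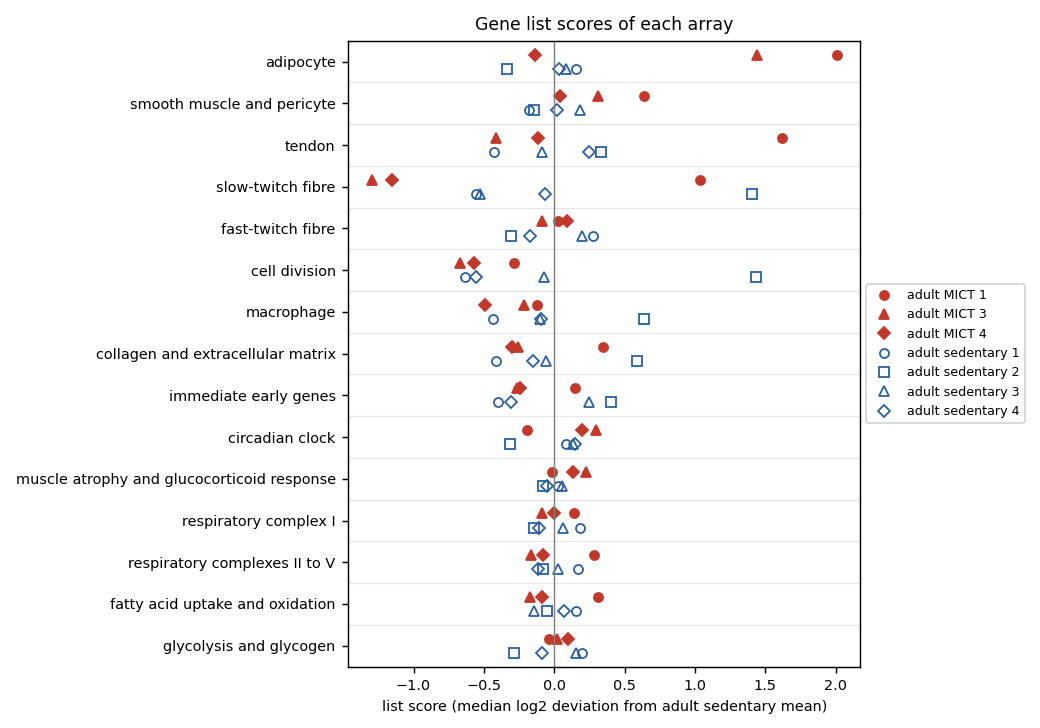
List score of each array for 15 gene lists, in log2 units relative to the adult sedentary mean; filled marks are adult MICT arrays and open marks adult sedentary arrays. The fuel lists at the bottom keep within 0.31 of 0. Adipocyte scores stand high on adult MICT 1 and 3 and tendon scores on adult MICT 1. Slow-twitch scores stand high on adult MICT 1 and sedentary 2, and cell division scores on sedentary 2.

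The stress-hormone list had a small median, with a few members further apart. The 31 measured genes of muscle atrophy and the glucocorticoid response had a median of 0.17, with 21 above 0 and 0 at an unadjusted p under 0.05. In 5 of the 31 the groups did not overlap, 4 higher and 1 lower. The share over all features was 4.21%, with 1.79% higher and 2.42% lower. Fkbp5, a chaperone and a standard target of the glucocorticoid receptor, stood at 3.32, 3.94 and 3.77 in adult MICT and at 3.24, 2.57, 2.90 and 2.11 in adult sedentary muscle. The groups do not overlap, and the difference was 0.97 ± 0.60. Cdkn1a, the cell cycle inhibitor p21, had 1.80, 2.63 and 1.10 in adult MICT against 0.18, 0.99, 0.05 and 0.98 in adult sedentary muscle, again without overlap, for a difference of 1.30 ± 0.71. Fbxo21, an F-box protein, and Pik3r1, a regulatory subunit of phosphoinositide 3-kinase, also kept apart at 0.22 ± 0.25 and 0.57 ± 0.39. Arrdc3, an arrestin-like adaptor, did so below, at -0.60 ± 0.74; it, Fbxo21 and Pik3r1 are named after their values were seen. The ubiquitin ligases of muscle wasting overlapped between groups: Fbxo32 differed by 0.40 (95% interval -1.0 to 1.80) and Trim63 by 0.33 (-1.10 to 1.77). Klf15, a glucocorticoid target in muscle, differed by -0.24 ± 0.40. The 2 probes of Mt1, a metallothionein, disagreed, at 0.89 ± 0.76 and -0.60 ± 0.70.

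The circadian clock list had a median of 0.07 over 18 genes, with 13 above 0. Nr1d1, the repressor REV-ERBalpha, had 2.41, 2.55 and 2.70 in adult MICT and 2.45, 1.44, 0.97 and 2.31 in adult sedentary muscle. One sedentary array reaches the MICT range, and the difference of 0.76 ± 0.28 is the only one of the list with an unadjusted p under 0.05. Per1 differed by 0.53 ± 0.39, Arntl by 0.53 ± 0.43 and the output gene Dbp by -0.17 ± 0.56. The scores were -0.20, 0.30 and 0.20 in adult MICT and 0.09, -0.31, 0.14 and 0.15 in adult sedentary muscle.

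Immediate early genes, which answer a single bout within the hour, overlapped between the groups. Their median was -0.16 over 28 genes, with 8 above 0 and 1 (Fos) at an unadjusted p under 0.05. The list scores interleaved, at 0.15, -0.26 and -0.24 in adult MICT against -0.40, 0.41, 0.25 and -0.31 in adult sedentary muscle, and the median was -0.01 without adult sedentary 2. Fos had -0.66, -1.50 and -1.26 in adult MICT and -1.0, 0.80, 0.67 and -0.97 in adult sedentary muscle, a difference of -1.01 ± 0.46. Egr1 had 0.73, -0.48 and -0.80 in adult MICT against -0.27, 1.81, 1.39 and 0.28 in adult sedentary muscle, a difference of -0.99 ± 0.51. In both genes adult sedentary 2 and 3 are the high arrays and the groups overlap.

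Growth and stress lists centred on 0. Growth signalling and the myostatin pathway had a median of -0.05 over 34 genes. Mstn, the growth inhibitor myostatin, had 1.35, 3.19 and 3.27 in adult MICT and 3.32, 2.35, 3.61 and 3.03 in adult sedentary muscle, low on adult MICT 1. Irs1, the insulin receptor substrate, had 3.99, 4.25 and 4.11 in adult MICT against 4.55, 4.37, 4.52 and 4.37 in adult sedentary muscle, a difference of -0.33 ± 0.27 without overlap. Smad3, which carries the myostatin and TGF-beta signal, lay lower by a similar step, -0.38 ± 0.28, also without overlap; both were picked after their values were seen. Rps6, a ribosomal protein, differed by -0.15 ± 0.08 and Id3, an inhibitor of differentiation, by 0.36 ± 0.19. Id3 was high on adult MICT 1 at 2.80, beside 1.94 and 1.84 on the other MICT arrays. Adult sedentary muscle had 1.57 to 2.00, and the lowest Id3 difference with 1 array left out was 0.06. Medians were -0.09 for 21 myogenic and satellite cell genes, -0.02 for 25 neuromuscular junction and denervation genes, -0.08 for 23 chaperones, -0.05 for 31 genes of endoplasmic reticulum and amino acid stress, 0.01 for 29 antioxidant and metallothionein genes and -0.00 for 32 autophagy and lysosome genes. Sdf2l1, an endoplasmic reticulum chaperone cofactor, did not overlap, with -0.55, -0.37 and -0.49 in adult MICT against -0.26, 0.45, 0.44 and -0.24 in adult sedentary muscle (difference -0.57 ± 0.28).

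Immune and secreted-factor genes gave no call either. The 32 interferon and antigen presentation genes had a median of -0.20 with 6 above 0, and H2-Ab1, an MHC class II chain, differed by -0.65 ± 0.46. Marker medians were -0.27 for macrophages (12 genes), -0.30 for B and plasma cells (8), -0.15 for T and NK cells (11), 0.00 for neutrophils and mast cells (12), -0.13 for fibroblasts (11), -0.06 for Schwann cells and myelin (10), -0.13 for red blood cells (7), -0.05 for keratinocytes (9) and -0.09 for cartilage and bone (8). Secreted muscle and exercise factors had a median of -0.09 over 28 genes. Cxcl1, a neutrophil chemokine, was not well above background on any MICT array and was so on 3 of 4 sedentary arrays. Its mean was at least 1.71-fold lower in adult MICT (measured means of -5.32 and -3.72), a bound that leaves out the spread between arrays. The groups overlap, with -4.42, -4.68 and -6.86 in adult MICT against -6.41, -3.08, -2.21 and -3.18 in adult sedentary muscle. Il7 did not rise above background on any of the 7 arrays, so no fold is given. Over all 40 lists, 4 of the 842 members measured had an unadjusted p under 0.05 (Lep and Nr1d1 above 0, Fos and Cxcl1 below), a share of 0.475% beside 2.33% of all features. In 21 of the 842 (2.49%) the groups did not overlap, 9 higher and 12 lower, beside 4.21% of all features.

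The genes that stood furthest apart between the groups lay outside these lists for the most part. Among named genes without overlap, the 12 largest positive differences ran from 0.99 to 2.32. Rasd1, a Ras-like GTPase first known as a dexamethasone-induced gene, had -0.94, -1.70 and -3.41 in adult MICT and -4.32, -4.42, -4.61 and -4.0 in adult sedentary muscle. All MICT arrays lie above all sedentary ones, and the difference was 2.32 ± 0.83, although its signal was well above background on only 2 of 4 sedentary arrays. Spock2, the matrix proteoglycan testican-2, had -0.83, -0.73 and -1.09 in adult MICT against -2.59, -2.67, -1.51 and -2.04 in adult sedentary muscle, a difference of 1.32 ± 0.34. Mybph, a myosin-binding protein of the sarcomere, had 3.95, 5.21 and 4.30 in adult MICT against 3.88, 2.72, 3.77 and 3.06 in adult sedentary muscle, a difference of 1.13 ± 0.43. Inhbb, the beta B subunit of activin and inhibin, had 0.81, -0.11 and 0.39 in adult MICT against -0.89, -0.47, -1.17 and -0.58 in adult sedentary muscle, a difference of 1.14 ± 0.62. Timp4, an inhibitor of matrix metalloproteinases, had 2.51, 2.40 and 2.12 in adult MICT against 1.30, 0.98, 1.57 and 1.76 in adult sedentary muscle, a difference of 0.94 ± 0.27, just under the 12 largest. The others of the 12, beside Cdkn1a above, were Myrip, a linker of Rab27 to myosin motors (1.04 ± 0.30), the predicted gene Gm10638 (1.00 ± 0.47), the actin bundler Fscn2 (0.99 ± 0.56), coagulation factor F5 (1.37 ± 0.61), H2-Eb2 of the MHC class II (1.32 ± 0.68), the lipid hydrolase Pnpla3 (1.13 ± 0.60, with 0.29 ± 0.39 at its second probe) and the macrophage scavenger receptor Cd163 (1.15 ± 0.56). Cd163 was high on adult MICT 1 at -2.22, beside -4.20 and -4.35 on the other MICT arrays, and differed by 0.46 without adult MICT 1. Like Rasd1, the genes F5, H2-Eb2 and Cd163 were well above background on only 2 of 4 sedentary arrays.

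**Figure D4:**
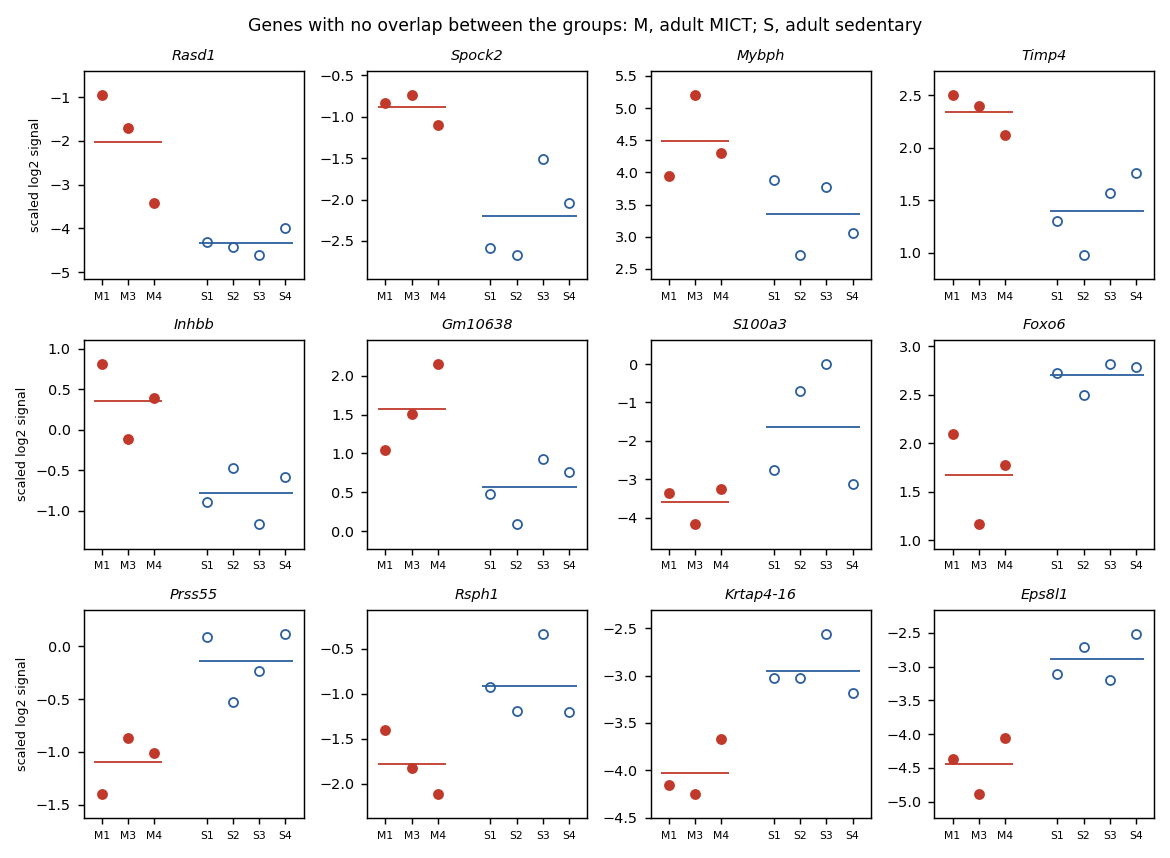
Scaled log2 signal of 12 genes whose groups do not overlap, on each adult MICT (M) and adult sedentary (S) array; lines are group means. In each panel the M arrays all lie on one side of the S arrays; the gap of Rasd1 is narrowest at M4 (-3.41) and that of S100a3 on S1 and S4 (-2.76 and -3.12).

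The 12 largest negative differences without overlap ran from -1.95 to -0.95. S100a3, a calcium-binding protein best known from hair, had -3.35, -4.18 and -3.26 in adult MICT and -2.76, -0.71, -0.00 and -3.12 in adult sedentary muscle. Adult sedentary 2 and 3 carry the gap of -1.95 ± 0.56. Foxo6, a FoxO transcription factor, was the brightest of these genes, with 2.09, 1.16 and 1.78 in adult MICT against 2.73, 2.50, 2.82 and 2.79 in adult sedentary muscle. Its difference was -1.03 ± 0.43, about 2.04-fold lower, and a second probe gave -0.46 ± 0.46. Prss55, a serine protease, had -1.40, -0.87 and -1.01 in adult MICT against 0.09, -0.53, -0.23 and 0.12 in adult sedentary muscle, a difference of -0.95 ± 0.38. The rest had low signals: the epithelial metallothionein Mt4 (-1.82 ± 1.03), the actin regulator Eps8l1 (-1.56 ± 0.56), the tau kinase Ttbk1 (-1.51 ± 0.49), the DNA repair nuclease Fan1 (-1.14 ± 0.40), the protease Prss33 (-1.09 ± 0.29), the keratin-associated Krtap4-16 (-1.08 ± 0.25), the transporter Spns3 (-1.06 ± 0.40), 1700016C15Rik (-0.98 ± 0.57) and the cytochrome P450 Cyp4f39 (-0.96 ± 0.48). Without adult MICT 1, the lowest array of Fan1 at -6.27 and of Spns3 at -4.01, Fan1 differed by -0.42 and Spns3 by -0.67. Prss33 was not well above background on any MICT array and so is given as at least 1.39-fold lower, with measured means of -5.13 and -4.03.

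The smallest unadjusted p of the comparison, 6.56e-05 by limma, belonged to Speer4c, a member of a testis-expressed multigene family whose probe may also read near copies. It had -2.01, -1.06 and -3.14 in adult MICT and -4.51, -4.89, -4.38 and -3.11 in adult sedentary muscle, well above background on 1 of the 4 sedentary arrays, and its difference was 2.15 ± 0.43. Krtap4-16, Spock2, Prss33, Myrip, Timp4 and S100a3 were also among the 10 smallest, with Rsph1, a ciliary protein (-0.87 ± 0.25). Serpinf2, the plasmin inhibitor, and Olfr456, an olfactory receptor, were not well above background on any MICT array and on 2 of 4 sedentary arrays, and were at least 1.13-fold and 1.09-fold lower.

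The old mice give a comparison that shares no array with the adult one. Of the 24 named genes without overlap, 16 had the same sign in old MICT minus old sedentary muscle, as did 48.2% of all features. Among them, Spock2 (0.58), Inhbb (1.18), Cdkn1a (1.5), Gm10638 (1.5), Myrip (0.68) and Fscn2 (1.43) lay above 0. Foxo6 (-0.91), Ttbk1 (-1.38), Mt4 (-1.36) and Eps8l1 (-0.55) lay below. In Mt4 old sedentary 2 stood at 1.32, with -4.31, -2.25 and -3.20 on the other old sedentary arrays. In Eps8l1 that array stood at -0.45, with -3.47, -3.20 and -3.48 on the others. In Inhbb, Cdkn1a, Gm10638, Fscn2 and Myrip, old MICT 1 and 2 stood above old MICT 3 and 4. In Foxo6 they stood below, at -0.18 and -0.73, beside 1.23 and 1.46. In Spock2 old MICT 2 stood at 0.96, with -0.31, -0.37 and -0.49 on the other old MICT arrays. Rasd1 (-0.94), F5 (-1.64), H2-Eb2 (-3.18) and Pnpla3 (-1.41) had a sign in old muscle opposite to that in adult muscle. In H2-Eb2 and F5, old MICT 1, 2 and 4 lay under the lowest signal well above background of their arrays. In Ttbk1 every old MICT array did, so the old differences of these genes are no measured sizes. These 16 of 24 are a description, because the adult MICT and the old sedentary arrays lay on the same slide.

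The difference between the ages was tested as an interaction, adult MICT minus sedentary less old MICT minus sedentary. Limma called 265 features (0.973%), 34 with a positive interaction (0.125%) and 231 with a negative one (0.848%), and 25.3% of features had an unadjusted p under 0.05. The count was 0 with normexp background, and with 1 array left out it ran from 27 (without adult sedentary 1) to 2301 (without old sedentary 3). In 254 of the 265 the difference had opposite signs at the ages, and in 249 it was larger in old muscle. Of the 231 negative ones, 200 (86.6%) had both groups of slide 2, adult MICT and old sedentary, below all 4 groups of slides 1 and 3. A negative interaction selects for this order, since it sets these 2 groups against groups on other slides, so the share is a description, and slide and interaction cannot be told apart. Among the 428 features lower in adult MICT at an unadjusted p under 0.05, 223 (52.1%) showed the same order, beside 10% of all features. Of the 207 higher ones 51 (24.6%) showed the reverse, with both slide 2 groups highest, beside 2.98% of all features. Standing lower or higher in adult MICT is itself part of these orders, so these shares too are descriptions. Of the 24 named genes Fan1, Prss33 and Krtap4-16 had both slide 2 groups lowest, and F5, H2-Eb2 and Pnpla3 had them highest. Krtap4-16 had -4.15, -4.25 and -3.67 in adult MICT and -3.02, -3.02, -2.56 and -3.19 in adult sedentary muscle. The old groups had -2.94, -3.09, -3.30 and -3.02 in MICT muscle, against -4.42, -4.25, -3.63 and -4.03 in sedentary muscle. Its interaction was -2.07 ± 0.34 (limma adjusted p = 0.00979). Olfr704 (-2.04 ± 0.36, adjusted p = 0.0164) had the same order of groups. So did 4930463O16Rik (limma adjusted p = 0.00885), which was not well above background on any adult MICT or old sedentary array. The hair keratin Krt82 (limma adjusted p = 0.0158) did too, and was not well above background on any old sedentary array. The fitted interactions of these 2 genes are therefore no measured sizes.

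The positive interactions were fewer. Phgdh, the first enzyme of serine synthesis, had 0.66, 0.12 and -1.0 in adult MICT and -0.75, -0.70, -0.86 and -0.66 in adult sedentary muscle. In old mice it had -1.12, -0.04, -0.62 and -0.21 with MICT, against 1.77, 1.53, 0.53 and 1.45 in sedentary muscle. Its interaction was 2.48 ± 0.54 (limma adjusted p = 0.0340). H2-Eb2 followed with 4.50 ± 0.92 (limma adjusted p = 0.0279) and Speer4c with 2.50 ± 0.59 (limma adjusted p = 0.0469). Low signals enter the value of H2-Eb2, which had -4.58, -6.56 and -6.52 on old MICT 1, 2 and 4. It was well above background on 2 of 4 adult sedentary arrays, so its fitted interaction is no measured size. Metabolic and atrophy genes with large differences in old muscle did not pass this test: Pdk4 differed by 0.82 ± 0.82 in adult and by 3.76 ± 0.76 in old muscle, Fbxo32 by 0.40 ± 0.67 and 2.96 ± 0.62, and Trim63 by 0.33 ± 0.69 and 2.83 ± 0.64, with limma adjusted p of the interaction of 0.131, 0.117 and 0.129. The old MICT arrays were themselves split: Pdk4 had 9.11, 8.80, 6.40 and 5.89 in old MICT, against 2.85, 3.83, 4.57 and 3.92 in old sedentary muscle, and in Fbxo32 and Trim63 too old MICT 1 and 2 stood above old MICT 3 and 4. The atrophy and glucocorticoid list had a median of 0.17 in adult and 1.49 in old muscle, and the medians of adipocyte markers were 1.14 in adult and -0.84 in old muscle, beside -0.02 and 0.21 for all features. Markers of other tissues had large medians in old muscle: -3.56 for keratinocytes, -3.05 for T and NK cells and -3.02 for B and plasma cells, against -0.05, -0.15 and -0.30 in adult muscle. Their part in the interaction was not tested.

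**Figure D5:**
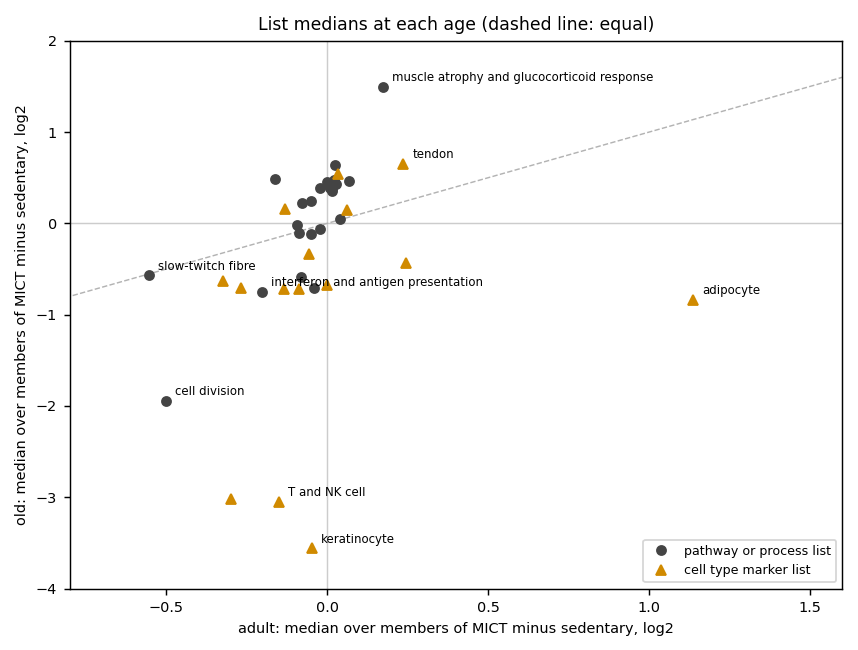
Median difference of MICT minus sedentary over the members of each of 40 gene lists, in adult (horizontal) and old (vertical) muscle, in log2 units; the dashed line marks equal medians and the axes differ in span. The atrophy and glucocorticoid list lies at 0.17 and 1.49, the adipocyte list at 1.14 and -0.84, and keratinocyte markers at -0.05 and -3.56.

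Set directly against HIIT in adult mice, MICT again gave 0 calls by limma (0%), and no adjusted p lay under 0.221. At an unadjusted p under 0.05 there were 2266 features (8.32%). The smallest p among named genes belonged to Pou5f2, a POU-domain gene, with 0.03, 0.04 and -0.07 in adult MICT and -0.67, -0.54, -0.58 and -0.64 in adult HIIT, a difference of 0.61 ± 0.11 without overlap. St3gal1, a sialyltransferase, differed by 0.66 ± 0.16 and Tmem87a by 0.78 ± 0.19, while Cyp2c38 differed by -1.01 ± 0.25. Reg3g, a lectin of the gut and of stressed tissue, was not well above background on any MICT array and was so on all 4 HIIT arrays, at -2.10, -2.23, -3.58 and -2.71 (limma adjusted p = 0.329), so no size is given. The HIIT arrays shared slide 1 with the adult sedentary arrays, so slide cannot be told apart from regimen here either. In adult HIIT minus adult sedentary muscle, the adipocyte median was 0.92, beside 1.14 for adult MICT. The slow-twitch median was 1.07, beside -0.55 for adult MICT.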

How the data were processed

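RNA of 23 gastrocnemius samples was measured on 1-colour Agilent arrays of 62976 spots. Per the file headers, Feature Extraction 12.0.3.1 made the deposited intensity values, background-corrected, on an array design that uses build mm9. The series' value table, deposited as a score whose making is not given in the sources used here, correlated at 0.9995 or more with log10 intensity on each array and served as an alternative.

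From the intensity of the 59305 gene spots, log2 values were scaled by subtracting the 75th percentile of each array. Spots of a probe were averaged. The 31939 probes well above background on at least 3 of 23 arrays were kept, with 1 probe (the highest mean) per symbol, which left 27244 features, 15463 of them with a symbol. Of 29786 probes with a RefSeq accession, 28331 were named through RefSeq (GRCm38.p6, names only). No gene spot was saturated. Group means of all 6 groups were fitted with limma 3.58.1 in R 4.3.3 with an intensity trend, and p-values are 2-sided with Benjamini-Hochberg adjustment at 0.05. The procedure was tested on simulated data.

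A fold of a gene not well above background on any array of a group is a lower bound. It is the mean of the brighter group over that of the dimmer one. On each dim array the lowest signal well above background takes the place of a lower value. The bound leaves out the spread between arrays. Genes were named by rule, and not all it names are described: a fixed set of training genes, the 2 members of each list with the smallest p, the 12 largest differences in each direction among genes whose groups did not overlap and that were well above background on every array of a group, the 10 smallest p, and the 5 smallest p of the interaction and of the HIIT comparison. Exceptions are marked. The members and lists were chosen with earlier results of these data known. The labels give replicate numbers without saying that they pair mice. Deviations of same-numbered arrays from their group means correlated at -0.157, 0.108 and 0.182, so the numbers were not used as pairs. Alternatives covered background correction, scaling, filters, variance settings, array weights, a replicate block and single arrays left out. Some results of the rule are not reported here.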

Additional observations from a re-analysis of the deposited data

Results flagged for a closer look

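Dixon's test was run over the 4 adult sedentary arrays for each of the 99 genes named and 40 list scores. It flags about 1 in 20 groups by chance, so some flags among so many are due to chance. The single values that stood far from the other 3 follow. Adult sedentary 3 was low in Sdhd at 4.75, with 6.81 to 7.12 on the others, and in Plin5 at 2.86, with 3.62 to 3.70. It was also low in the endothelial marker score at -0.0977, with -0.0068 to 0.0089 on the others. Adult sedentary 2 was low in Adipoq at 0.974, in Dbp at 5.20 and in the circadian clock score at -0.315. It was high in Mt1 at 6.48, with 4.38 to 4.45 on the others, in Apln at 0.415 and in the cartilage and bone marker score at 0.384.

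By limma's interaction test, MICT minus sedentary differed between adult and old mice for 9 of the 99 genes named. Over all features the share was 0.973%. Some of the 9, such as 4930463O16Rik, were named for a small interaction p, so their passing follows from that choice. Others, such as Prss33 and Speer4c, were named for their adult difference, which is itself part of the interaction. The share among the named genes is therefore a description and cannot be set against that of all features. The interaction was 4.50 for H2-Eb2, 2.50 for Speer4c, 2.48 for Phgdh and 0.66 for Pou5f2. It was -1.84 for Prss33, -2.07 for Krtap4-16, -3.30 for 4930463O16Rik, -3.23 for Krt82 and -2.04 for Olfr704. Not well above background were Prss33 and 4930463O16Rik on any adult MICT or old sedentary array and Krt82 on any old sedentary array, so their fitted values are no measured sizes. The same holds for H2-Eb2, whose signals on old MICT 1, 2 and 4 lay under the lowest signal well above background of those arrays. In these data slide and interaction cannot be told apart.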

How the results depend on the processing

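The count of 0 in adult MICT against adult sedentary muscle also came from other processing settings and from leaving out any array (0 to 0). It was 635 at an unadjusted p and 3 with array weights: all 3 were unnamed probes with differences of -0.91, -2.24 and -1.97 and limma's adjusted p of 0.0393, and they are given after their values were seen. With the replicate block it was 0. The interaction count of 265 was 6904 unadjusted, 0 with normexp background, 47 with no filter on dim probes, 1 with only the compared groups in the fit and 2537 with array weights. It ran from 27 without adult sedentary 1 to 2301 without old sedentary 3, and moved by over 1.5 times without any of the arrays except old sedentary 4 and adult MICT 4; the cause was not tested. With the replicate block it was 307, of which 220 were among the 265. For adult MICT against adult HIIT there were 2266 features unadjusted and 3430 with array weights, and 0 to 1 with 1 array left out (1 without adult HIIT 4). Of 1973 gene alternatives 21 changed sign, in 8 genes, and none changed a call. Slc2a4 was 0.0296 with normexp, 0.0362 with quantile scaling, 0.0177 with median scaling and 0.015 in the deposited table, and -0.0811 to 0.0566 with 1 array left out. Vegfa was -0.0623 with normexp, -0.00813 with array weights, -0.0583 with the replicate block, -0.0208 in the deposited table, -0.0473 to 0.0718 with 1 array left out and -0.0133 without adult MICT 1 and adult sedentary 2. Without both arrays, an alternative added after seeing the data, Ppargc1a was -0.00112 and Cpt1b -0.00575. With 1 array left out, Cd36 ran from -0.0321 to 0.214, Myh1 from -0.39 to 0.11, Dbp from -0.34 to 0.11 and Mstn from -0.81 to 0.15. The adipocyte median ran from 0.81 without adult MICT 1 to 1.72 without adult MICT 4. An additive model of age, regimen and slide gave 0 calls. It has as many terms as groups, and its MICT term rests on the adult HIIT, adult sedentary, old MICT and old HIIT means. No adult MICT array enters that estimate, so its count says nothing about adult MICT against adult sedentary muscle. For single genes and lists it was not run. The number of arrays and low signals limit the precision.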
